A study of Mus musculus with 2 samples.

Results

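Macrophages of adipose tissue (ATMs) make secreted factors that act on the cells around them, and 9 such genes were followed here in single ATMs, out of 31053 genes in the files. All but 1 encode growth factors or cytokines of the growth factor families, *Igf1*, *Pdgfb*, *Pdgfc*, *Vegfb*, *Tgfb1*, *Gdf15*, *Hbegf* and *Areg*, and the other, *Igfbp4*, encodes a protein that binds insulin-like growth factors. The genes were listed by symbol, and their UMIs (unique molecular identifiers, each standing for 1 captured mRNA molecule) were summed over cells with 200 to 3500 genes and at most 10% mitochondrial UMIs. The cells came from the epididymal fat of male C57/BL6 mice aged 8 to 12 weeks, sorted as CD45+Lin-Ly6Clow/-F4/80+ with T cells, B cells, eosinophils and neutrophils gated out, and were sequenced with the 10x 3′ V2 droplet assay. The control diet (CD) library pooled 3 mice kept on that diet, and the high-fat diet (HFD) library pooled 3 mice that received the HFD overnight. Each diet thus had 1 library and no replicate, so no difference between the diets could be set against the spread between mice. Intervals are exact 95% intervals that cover counting error only, and no p-value is given.

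Insulin-like growth factor 1 (IGF1) promotes the growth and survival of many cells, and IGF-binding proteins such as IGFBP4 hold it away from its receptor until a protease cuts them. Platelet-derived growth factors act on stromal and perivascular cells, and vascular endothelial growth factors on the endothelium. TGFβ1 is secreted in a latent complex and has to be released before it can signal, GDF15 is a distant relative that is made under cell stress and signals to the hindbrain, and amphiregulin and HB-EGF are membrane-bound ligands of the EGF receptor that proteases shed. Macrophages of fat and other tissues are known as sources of several of these factors, and resident macrophages that line vessels carry *Lyve1*, *Timd4* and *Folr2*, whereas cells lately derived from monocytes carry *Ccr2* and *Lyz1*.

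The CD library held 4459 barcodes, of which 2364 passed (12284010 UMIs, 4490.5 in the median cell), and the HFD library 3163, of which 2021 passed (8086475 UMIs, 2792 in the median cell). Levels are UMIs of a gene scaled to a library of 1000000 UMIs (CPM), and 1 UMI was worth 0.0814 CPM in CD and 0.124 CPM in HFD. The libraries shared 14 barcodes, 7 of them among the kept cells. Of 6 macrophage markers, 6 were detected, and 98.1% of CD and 92% of HFD cells held a UMI of at least 1 of them. The macrophage list summed to 1749 CPM in CD and 1338 in HFD, and each list of other cells to less. *Cd3e*, *Ly6g* and all 4 mast cell or basophil markers stood at 0 in both libraries, but other T, NK or ILC2 and neutrophil markers were detected. The T, NK or ILC2 list summed to 43.4 CPM in CD and 36.9 in HFD, mostly *Il1rl1*, with a UMI in 17% and 11.6% of cells. The B cell list summed to 5.05 and 5.81 CPM. Stromal markers summed to 71.1 CPM in CD and 4.20 in HFD (4 and 3 of 4 detected), mostly *Dcn*, monocyte markers to 36.7 and 98.6 CPM (2 of 2 in each), dendritic markers to 24 and 53.7 CPM (3 of 3), and peritoneal macrophage markers to 19.9 and 42.9 CPM (3 of 3). Of the 2 monocyte genes, *Plac8* was at 25.6 CPM in CD and 89.8 in HFD, and *Ly6c2* at 11.1 and 8.78 CPM. The endothelial, adipocyte, neutrophil and mesothelial lists summed to between 0 and 13.4 CPM in each library. Where cells with a UMI of another cell type are left out below, all these lists but the macrophage, monocyte and dendritic ones were used.

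At the level of whole libraries, the 9 genes spanned a wide range. *Igfbp4* was the most abundant, at 492 CPM in CD and 214 CPM in HFD, followed in CD by *Igf1* at 263 and *Tgfb1* at 244 CPM. *Vegfb* was the least abundant, at 9.28 CPM in CD and 4.45 CPM in HFD. Against CD, 4 of the 9 genes were at least 2-fold lower in HFD with an interval below 0 (*Igf1*, *Igfbp4*, *Pdgfc* and *Vegfb*), and 1, *Gdf15*, was at least 2-fold higher. Among all 7035 genes with a mean of at least 10 CPM over the libraries, 1.72% were lower and 0.881% were higher by this rule. *Vegfb*, the only one of the 9 genes under that floor, is not part of this background. The number lower was 1 (*Vegfb*) with each cell thinned to 800 UMIs or given equal weight and 0 with HFD classes weighted as in CD, and the number higher was 0 without cells that held a UMI of another cell type. The median log2 ratio of all these genes was -0.0049, and the ratios of *Tgfb1*, *Hbegf*, *Areg* and *Pdgfb* lay within 2-fold.

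**Figure D1:**
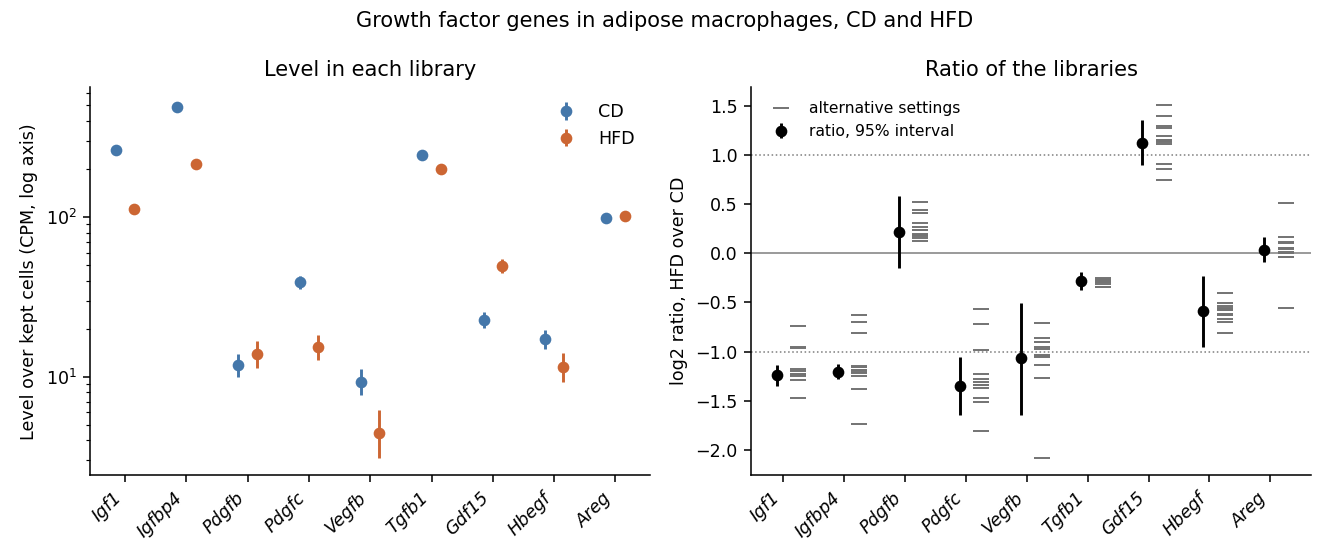
Left, the level of each gene over the kept cells of the CD and the HFD library in CPM on a log axis, with exact Poisson 95% intervals. Right, the log2 ratio of HFD over CD with its exact 95% counting interval (black) and its value under each alternative setting (grey dashes); dotted lines mark 2-fold. *Igf1*, *Igfbp4*, *Pdgfc* and *Vegfb* lie below the lower line, and *Gdf15* lies above the upper line at 1.12.

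To ask which ATMs carried these transcripts, cells were gated by a UMI of *Timd4*, *Lyve1*, *Folr2* (without *Lyve1*), *Ccr2* or *Trem2*, or by at least 10 UMIs of *Lyz1*, and each gate was compared with all other cells of its library. The gates overlap, and they hold deeper cells than the rest in some cases: Lyz1-gated cells had a median of 8205 UMIs in CD and 6609 in HFD, and the others 3707 and 1839. Lyve1+ cells were 49.6% of CD and 20.5% of HFD cells, Timd4+ cells 15.6% and 3.56%, and Trem2+ cells 27% and 8.31%. A gate set by 1 UMI takes in fewer of the shallow cells, and HFD cells were shallower.

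*Igf1*, *Igfbp4* and *Pdgfc* were high in Lyve1+ cells, *Areg* in cells with *Ccr2* or much *Lyz1* and *Gdf15* in cells with *Trem2*, while *Pdgfb*, *Vegfb*, *Tgfb1* and *Hbegf* were past 2-fold, with intervals on 1 side of 0 in both libraries, in 0 of 6 gates. *Vegfb* was past 2-fold without a clear interval in HFD, at -1.18 (-1.73 to -0.62) in Ccr2+ cells of CD and -1.04 (-2.07 to 0.04) in those of HFD. Lyve1+ cells had at least 2-fold higher levels of 3 of the 9 genes in both libraries (*Igf1*, *Igfbp4* and *Pdgfc*; 2.35% of all tested genes) and lower levels of 1 (*Areg*; 1.19%). Ccr2+ cells had a higher level of 1 (*Areg*; 1.95% of genes) and lower levels of 4 (*Igf1*, *Igfbp4*, *Pdgfc* and *Gdf15*; 4.25%). Cells with at least 10 UMIs of *Lyz1* gave the same 5 genes in the same directions, beside 1.62% of all genes higher and 6.3% lower. In Trem2+ cells 1 gene was higher (*Gdf15*; 0.128% of genes) and 1 lower (*Areg*; 0.426%). Timd4+ cells had 0 of the 9 genes higher (0.569% of genes) and 1 lower (*Areg*; 0.64%). Folr2+ Lyve1- cells had 0 of the 9 genes past 2-fold in either direction in both libraries, beside 0% of genes higher and 0.0853% lower. These are 17 of 54 pairs of a gene and a gate, 6 higher and 11 lower. Thinning each cell to 800 UMIs left 2 of the 6 higher pairs, *Areg* in the Ccr2 and Lyz1 gates. The gates were still set on the unthinned counts, so thinning did not change how entry to a gate depends on depth. In Lyve1+ cells *Igf1* was then at 0.66 and 0.60 in log2 over the other cells in CD and HFD, *Igfbp4* at 1.07 and 0.91, and *Pdgfc* at 0.96 and 1.82.

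**Figure D2:**
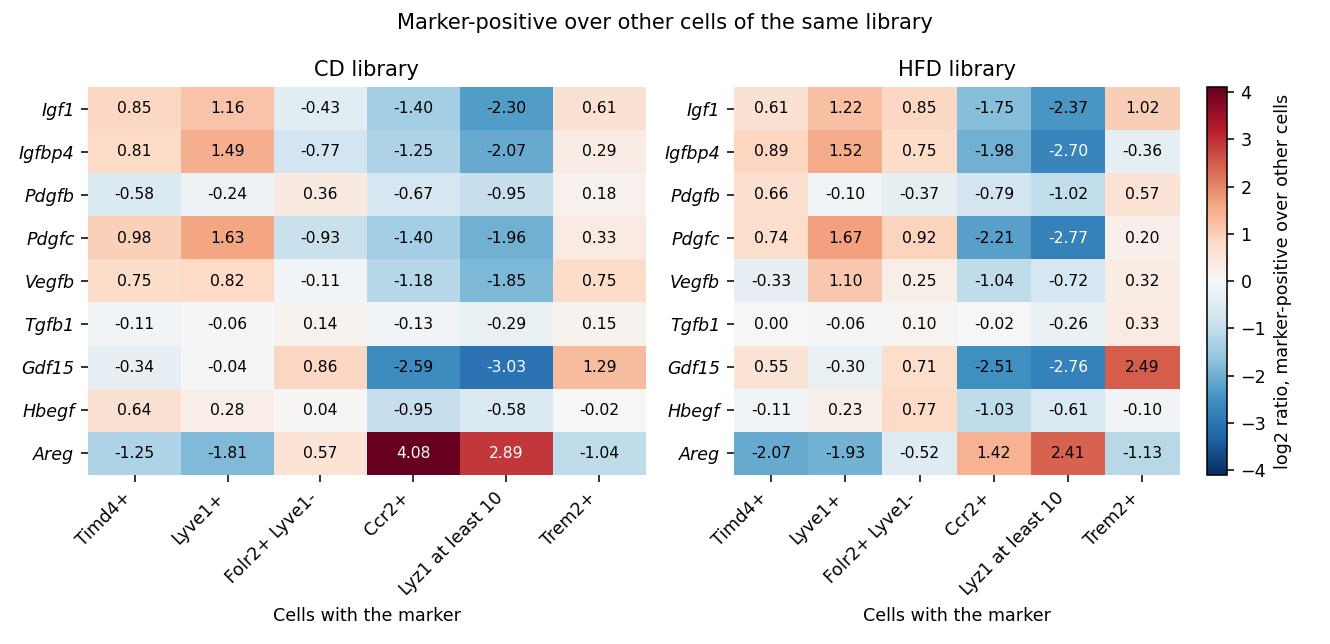
Log2 ratio of the level in cells with a marker over the level in all other cells, for the 9 genes (rows) and 6 gates (columns) in the CD library (left) and the HFD library (right), with the value printed in each field. *Areg* has the opposite colour to *Igf1*, *Igfbp4* and *Pdgfc* in the columns Lyve1+, Ccr2+ and Lyz1 at least 10 of both libraries, and *Tgfb1* stays between -0.29 and 0.33.

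Because the gates share cells, levels were also taken in 6 classes that do not overlap: Timd4+; Lyve1+ Timd4-; Folr2+ Ccr2- and Folr2+ Ccr2+ among cells with neither; Lyz1-high among cells with none of the 3 resident markers; and the remaining cells. The makeup of the libraries differed. Lyz1-high cells gave 10.1% of the UMIs in CD and 38.1% in HFD, and Lyve1+ Timd4- cells 32.9% and 15.7%. The remaining cells made up 6.35% of the CD cells and 26.4% of the HFD cells, and they were shallow, with medians of 3402 and 1477.5 UMIs. Folr2+ Ccr2- cells were shallow too, with medians of 2716 and 1578 UMIs, beside 6622 and 5155.5 in Folr2+ Ccr2+ cells. A class set by the absence of a UMI takes in more of the shallow cells, and the part of depth in its levels was not tested.

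**Figure D3:**
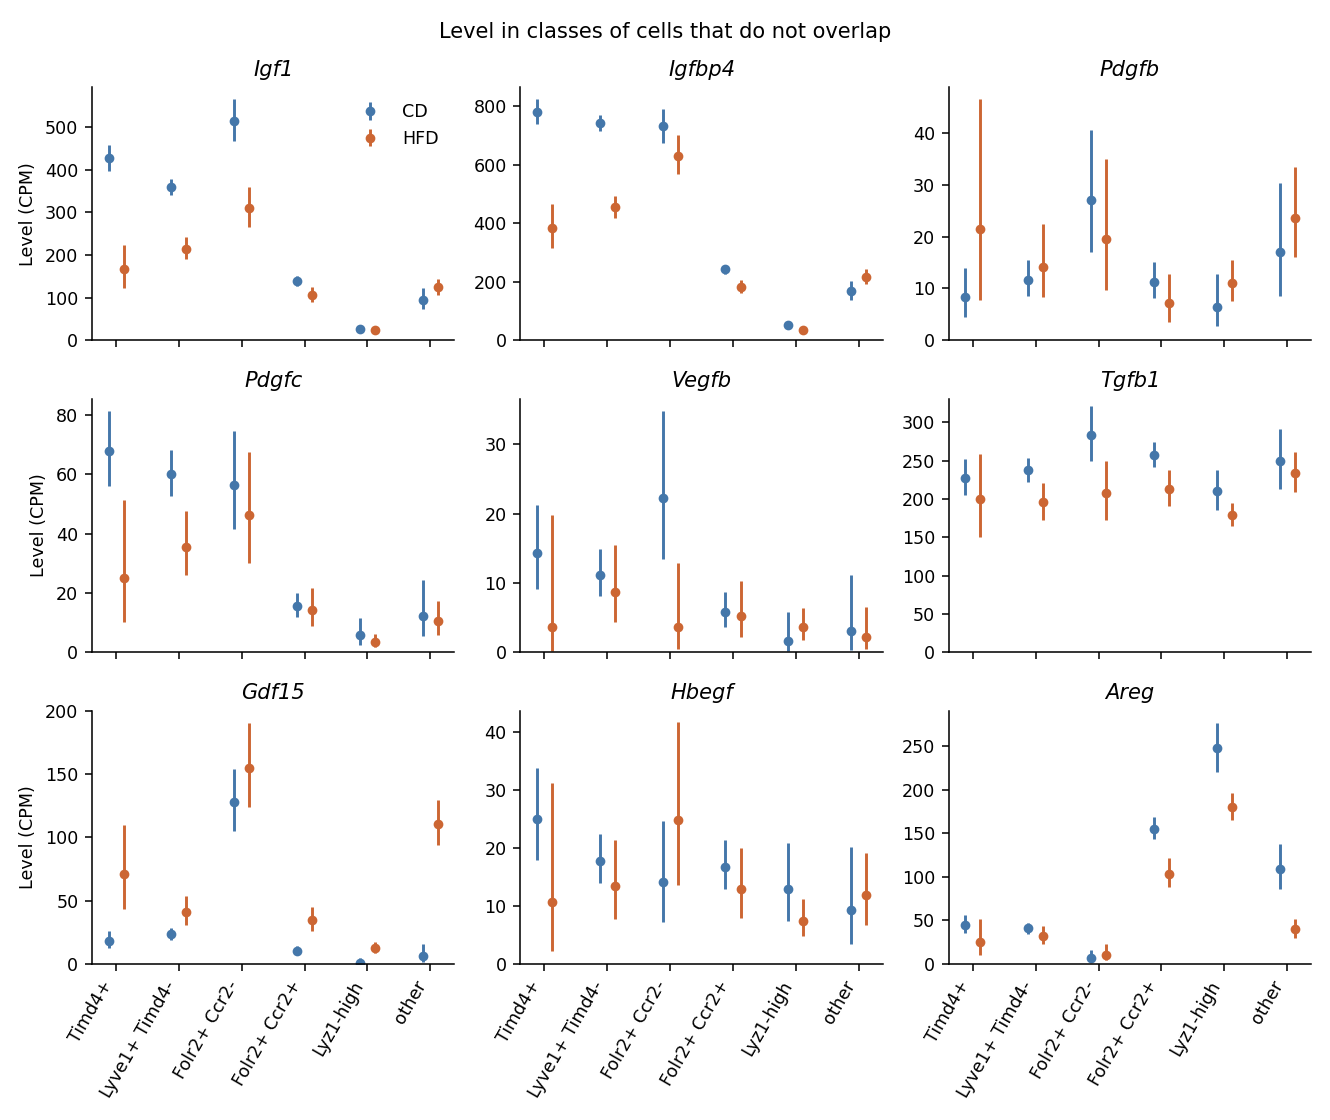
Level of each gene in CPM (linear axes from 0, one panel per gene) in 6 classes of cells that do not overlap, in the CD and the HFD library, with exact Poisson 95% intervals. *Igf1*, *Igfbp4* and *Pdgfc* are highest in the 3 classes on the left, *Areg* is highest in Lyz1-high cells, *Gdf15* is highest in Folr2+ Ccr2- cells, and *Tgfb1* stays between 179.6 and 284 CPM in all of them.

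*Igf1* (ENSMUSG00000020053, GRCm38 chr10:87858265-87937042) and *Igfbp4* (ENSMUSG00000017493, GRCm38 chr11:99041244-99054392), a ligand and a protein that binds it, had profiles across the 6 classes that were nearly the same. Over the 12 points given by 6 classes in 2 libraries, the Pearson correlation of their log2(CPM + 1) was 0.990, and *Igfbp4* was the gene most like *Igf1* among 7094 genes with at least 200 UMIs. The points share libraries and are no replicates, so this is a description. To set their promoters beside this, the RefSeq windows of GRCm38.p6 from 250 bases before to 50 bases after the start site are shown for both, with matches to 4 motifs in capitals. The motifs were the cAMP response element TGACGTCA, the TATA box TATAAA, the AP-1 site TGANTCA and the C/EBP-ATF site TTGCATCA, searched on both strands. They occur in 1.80%, 13.6%, 7.79% and 0.867% of 32544 promoters. The *Igf1* window (GRCm38 chr10:87860861-87861160, plus strand), whose start site lies downstream of the first base of the annotated gene, held an AP-1 match that begins 37 bases before the start site. The *Igfbp4* window (GRCm38 chr11:99040994-99041293, plus strand) held a TATA box match that begins 28 bases before it. The matches are letters in these windows and say nothing of binding.
Igf1: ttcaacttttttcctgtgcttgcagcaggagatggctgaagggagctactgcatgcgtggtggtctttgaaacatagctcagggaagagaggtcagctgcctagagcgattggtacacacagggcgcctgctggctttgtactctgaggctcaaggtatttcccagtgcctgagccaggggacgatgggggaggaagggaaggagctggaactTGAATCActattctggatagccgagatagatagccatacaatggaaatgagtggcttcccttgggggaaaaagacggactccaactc
Igfbp4: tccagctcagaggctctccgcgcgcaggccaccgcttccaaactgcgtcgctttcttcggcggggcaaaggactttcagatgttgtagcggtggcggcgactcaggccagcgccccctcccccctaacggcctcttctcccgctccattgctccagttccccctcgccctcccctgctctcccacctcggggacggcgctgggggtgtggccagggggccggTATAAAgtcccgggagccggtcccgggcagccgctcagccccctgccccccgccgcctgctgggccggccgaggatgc

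The *Igf1* level was 263 CPM in CD (3233 UMIs, interval 254 to 272) and 112 CPM in HFD (903 UMIs, 105 to 119). HFD was lower, with a log2 ratio of -1.24 (-1.34 to -1.13). *Igfbp4* stood at 492 CPM in CD (6038 UMIs, 479 to 504) and 214 CPM in HFD (1728 UMIs, 204 to 224), a log2 ratio of -1.20 (-1.28 to -1.12). Each gene was thus over 2-fold less abundant in HFD by this measure. A UMI of *Igf1* was found in 1346 CD cells (56.9%) and 573 HFD cells (28.4%). With every cell cut at random to 800 UMIs, at the cost of 30 CD and 147 HFD cells, the shares were 21% (19.4 to 22.7) and 11.6% (10.2 to 13.2). For *Igfbp4* the unthinned shares were 75.3% and 43.2%, and the thinned shares 36.3% (34.4 to 38.3) and 21.5% (19.7 to 23.4). For reference, cells with a UMI of *Plac8* or *Flt3* and none of *Folr2*, *Lyve1* or *Timd4* (20 in CD and 54 in HFD, at medians of 4983 and 5053.5 UMIs) held a thinned *Igf1* UMI in 0 of 20 CD cells, which allows a share of up to 15.0% (3 of the 20 cells), and in 3.70% (0.452 to 12.7) of HFD cells. Medians over all kept cells were lower, at 4490.5 and 2792 UMIs. *Igfbp4* was in 0 of 20 and 1.85% (0.0469 to 9.89) of them.

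Across the classes of the CD library, *Igf1* was at 426 CPM in Timd4+ cells, 359.7 in Lyve1+ Timd4- cells, 515 in Folr2+ Ccr2- cells, 138 in Folr2+ Ccr2+ cells, 25.8 in Lyz1-high cells and 95.7 in the remaining cells. In HFD it was at 168 CPM in Timd4+ cells, 215 in Lyve1+ Timd4- cells, 309 in Folr2+ Ccr2- cells, 106 in Folr2+ Ccr2+ cells, 25 in Lyz1-high cells and 124 in the remaining cells. Folr2+ Ccr2- cells led in both libraries, and Lyz1-high cells, which had the lowest level, differed little between them. Neighbours in this order had separate intervals throughout CD, but in HFD those of Lyve1+ Timd4- and Timd4+ cells, of Timd4+ and the remaining cells, and of the remaining and Folr2+ Ccr2+ cells overlapped. *Igfbp4* in CD was at 781 CPM in Timd4+ cells, 742 in Lyve1+ Timd4- cells, 731 in Folr2+ Ccr2- cells, 243 in Folr2+ Ccr2+ cells, 51.5 in Lyz1-high cells and 169.7 in the remaining cells, and in HFD at 385 CPM in Timd4+ cells, 455 in Lyve1+ Timd4- cells, 631 in Folr2+ Ccr2- cells, 182 in Folr2+ Ccr2+ cells, 37 in Lyz1-high cells and 216 in the remaining cells. Timd4+, Lyve1+ Timd4- and Folr2+ Ccr2- cells did not differ beyond their intervals for *Igfbp4* in CD, and in HFD Folr2+ Ccr2- cells stood above both others.

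Gates put these differences between cells in numbers. *Igf1* was at 382 CPM in Lyve1+ cells against 171 CPM in the others in CD and 212 CPM in Lyve1+ cells against 91.1 CPM in the others in HFD, and *Igfbp4* at 771 CPM in Lyve1+ cells against 275 CPM in the others and 465 CPM in Lyve1+ cells against 162 CPM in the others. In cells with at least 10 UMIs of *Lyz1*, *Igf1* was lower than in the others, with log2 ratios of -2.30 (-2.46 to -2.14) in CD and -2.37 (-2.61 to -2.14) in HFD. Folr2+ Lyve1- cells went opposite ways, at -0.43 (-0.54 to -0.33) in CD and 0.85 (0.65 to 1.04) in HFD. In Trem2+ cells of HFD *Igf1* was higher than in the others, at 1.02 (0.78 to 1.26), but *Igfbp4* was lower, at -0.36 (-0.61 to -0.12). In Trem2+ cells of CD both were higher, at 0.61 (0.51 to 0.71) and 0.29 (0.21 to 0.37). The other genes of the 9 followed in part: CD cells with *Igf1* had 676 against 277 CPM of *Igfbp4* in cells without it, 54 against 21.5 CPM of *Pdgfc* and 44.2 against 163 CPM of *Areg*.

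Within cells of the same marker, HFD was lower as well. In Lyve1+ cells *Igf1* was at 382 and 212 CPM in CD and HFD, a log2 ratio of -0.85 (-1.03 to -0.67). In Timd4+ cells it was at 426 and 168 CPM, a ratio of -1.35 (-1.81 to -0.92). The 72 Timd4+ cells of HFD also differed from the 368 of CD in markers of other cells, with dendritic markers at 20.8 and 481 CPM in CD and HFD, peritoneal macrophage markers at 77.9 and 442 CPM and monocyte markers at 1.19 and 149.8 CPM. Leaving out cells with a UMI of another cell type covered the peritoneal macrophage list but not the dendritic and monocyte lists. The ratio in Timd4+ cells was then -0.96 (-1.52 to -0.44) for *Igf1*. For *Igfbp4* it was -0.64 (-1.0 to -0.30), compared with -1.02 (-1.32 to -0.74) in all Timd4+ cells. The interval lay below 0 in 6 of 6 gates for both genes, from -1.35 to -0.40 for *Igf1* and from -1.72 in Trem2+ cells to -0.19 in Folr2+ Lyve1- cells for *Igfbp4*. In the classes that do not overlap it lay below 0 in 4 of 6 for *Igf1* and 5 of 6 for *Igfbp4*. The remaining cells went the other way, at 0.37 (-0.05 to 0.82) and 0.35 (0.03 to 0.68). When the HFD classes were weighted by their share of UMIs in CD, the log2 ratios were -0.74 and -0.63, short of 2-fold, and with equal weight for each cell they were -0.95 and -0.70. The makeup of other gates differed between the libraries as well. Lyve1+ cells had dendritic markers at 1.86 CPM in CD and 78.4 in HFD, and monocyte markers at 5.40 and 36.3 CPM. Of the Trem2+ cells, 386 of 638 in CD and 32 of 168 in HFD were also Lyve1+. In the library values and in those of the gates, fewer cells of a type and less mRNA per cell cannot be told apart. Stromal markers, which were also lower in HFD, had 770 of their 874 CD UMIs in cells with a UMI of *Igf1*. Over the cells that held no UMI of another cell type, the library ratios were -1.24 for *Igf1* and -1.22 for *Igfbp4*.

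Of the other 14 genes of the IGF axis (a ligand, receptors, binding proteins, adaptors and proteases), 11 had UMIs and 3 passed the 10 CPM floor, the receptor genes *Igf1r* and *Insr* and the adaptor *Irs2*. Of these 0 were past 2-fold in either direction, beside 0.881% of all genes higher and 1.72% lower. Their median log2 ratio was -0.22, beside -0.0049 for all genes. Below the floor, *Igf2r*, the mannose 6-phosphate receptor that clears IGF2, was at 4.15 CPM in CD and 12.5 CPM in HFD, a log2 ratio of 1.59 (1.09 to 2.10). *Igfbp7*, another secreted binding protein, was at 13.7 CPM in CD and 3.22 CPM in HFD, a ratio of -2.09 (-2.74 to -1.49). Its level in CD was highest in the remaining cells, at 128 CPM, and in Folr2+ Ccr2- cells, at 42.2 CPM. These classes had 10.3 and 5.33 CPM in HFD. Lyve1+ Timd4- cells were not lower in HFD, with 2.47 CPM in CD and 3.94 CPM in HFD. After *Igfbp4*, the genes most like *Igf1* over the 12 points were *Selenop* and *Gas6* (r of 0.987 and 0.986), and those most like *Igfbp4* were *Fcgrt*, *Gas6* and *Selenop* (0.995, 0.995 and 0.994).

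*Pdgfc* (ENSMUSG00000028019, GRCm38 chr3:81036416-81214040), which encodes a platelet-derived growth factor that is activated by proteolysis, had the lowest ratio of the 9 genes. It was at 39 CPM in CD (479 UMIs, 35.6 to 42.6) and 15.3 CPM in HFD (124 UMIs, 12.8 to 18.3), a log2 ratio of -1.35 (-1.64 to -1.06). The transcript was thin in every cell, with at most 3 UMIs in a CD cell and 4 in an HFD cell. Its classes had the order of *Igfbp4* in CD, where it was at 67.8 CPM in Timd4+ cells, 60.1 in Lyve1+ Timd4- cells, 56.3 in Folr2+ Ccr2- cells, 15.5 in Folr2+ Ccr2+ cells, 5.64 in Lyz1-high cells and 12.3 in the remaining cells. In HFD the values were 25 CPM in Timd4+ cells, 35.5 in Lyve1+ Timd4- cells, 46.2 in Folr2+ Ccr2- cells, 14.3 in Folr2+ Ccr2+ cells, 3.25 in Lyz1-high cells and 10.3 in the remaining cells. The intervals of neighbouring classes overlapped in both libraries except for the step from Folr2+ Ccr2- to Folr2+ Ccr2+ cells in CD. Over the 12 points its correlation was 0.966 with *Igf1* and 0.977 with *Igfbp4*, and its nearest genes were *Tmem8*, *Rnase4* and *Csf1r* (0.990, 0.988 and 0.987).

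Inside gates, HFD was lower for *Pdgfc* with an interval below 0 in 5 of 6. The exception was Folr2+ Lyve1- cells, at 25.4 and 23.3 CPM and a log2 ratio of -0.12 (-0.62 to 0.36). Ccr2+ cells had 26.3 and 8.26 CPM in CD and HFD, a ratio of -1.67 (-2.14 to -1.23). In classes that do not overlap, the interval lay below 0 in 2 of 6, Timd4+ and Lyve1+ Timd4- cells. With the classes of CD as weights the library ratio was -0.72, with cells thinned to 800 UMIs -0.57, and with equal weight for each cell -0.99, all 3 short of 2-fold. Of the stromal marker UMIs, 541 of 874 in CD and 2 of 34 in HFD lay in cells with a UMI of *Pdgfc*.

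*Vegfb* (ENSMUSG00000024962, GRCm38 chr19:6982473-6987651), a VEGF family ligand known for its part in fat and heart, was rare. It gave 114 UMIs in CD (9.28 CPM, 7.66 to 11.1) and 36 in HFD (4.45 CPM, 3.12 to 6.16), a log2 ratio of -1.06 (-1.64 to -0.51). Each of the 36 HFD UMIs lay in a cell of its own. In CD the level was highest in Folr2+ Ccr2- cells, at 22.3 CPM, where HFD had 3.55 CPM from 2 UMIs, a ratio of -2.65 (-5.80 to -0.60). Of the 6 gates, 1 had an interval below 0, Ccr2+ cells at -0.93 (-1.71 to -0.20), and at this depth no difference was detectable in the other 5. The library ratio was short of 2-fold under 6 of 13 alternative settings, among them -0.71 with the classes of CD as weights, and it was lowest, at -2.08, in cells thinned to 800 UMIs. That lowest value rests on few cells, as only 20 CD and 4 HFD cells then held a UMI of *Vegfb*.

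*Pdgfb* (ENSMUSG00000000489, GRCm38 chr15:79995874-80014977), which encodes the ligand that recruits pericytes to vessels, differed by less than its counting error. It was at 11.9 CPM in CD (146 UMIs) and 13.9 CPM in HFD (112 UMIs), a log2 ratio of 0.22 (-0.15 to 0.59). Its interval included 0 in 6 of 6 gates and 6 of 6 classes, from -0.66 to 1.36 in the latter. Unlike *Pdgfc*, it was not higher in Lyve1+ cells, with 10.8 CPM in Lyve1+ cells against 12.7 CPM in the others in CD and 13.1 CPM in Lyve1+ cells against 14 CPM in the others in HFD. It was lower in cells with at least 10 UMIs of *Lyz1* in both libraries, at -0.95 (-1.54 to -0.40) and -1.02 (-1.61 to -0.46). CD cells with *Pdgfb* were rich in endothelial markers, at 81.1 against 7.99 CPM in cells without it (3.34 (2.86 to 3.82) in log2), and in dendritic markers, at 112 against 18.1 CPM. In HFD the endothelial ratio was 1.66 (0.68 to 2.53) and the dendritic one -3.77 (-6.82 to -1.91), and the part of such cells in the level of *Pdgfb* was not tested. The gene most like it was the chemokine *Ccl4* (r of 0.935), followed by *Uap1* and *Zfp984* (0.927 and 0.926).

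Of 12 other genes of the PDGF and VEGF families and their receptors, 12 had UMIs, 2 passed the floor and 1 was past 2-fold, on the lower side, where 1.72% of all genes were. This was *Nrp1*, a co-receptor of VEGF ligands, at 109 CPM in CD and 52.9 CPM in HFD and a log2 ratio of -1.04 (-1.20 to -0.89). In CD and HFD it was at 160 and 110 CPM in Lyve1+ Timd4- cells and 8.05 and 15.3 in Lyz1-high cells. The part of the makeup of the libraries in its ratio was not tested. The genes of the PDGF receptors, *Pdgfra* and *Pdgfrb*, had 5 and 3 UMIs in CD and 0 in HFD. These receptors and *Vegfa* lie outside the rule for naming genes and were chosen after their values were seen. *Vegfa*, the main angiogenic ligand of the family, had 20 UMIs in CD and 78 in HFD, a log2 ratio of 2.57 (1.84 to 3.35), below the floor.

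*Tgfb1* (ENSMUSG00000002603, GRCm38 chr7:25687002-25705077) was spread nearly evenly over the cells. It was at 244 CPM in CD (2992 UMIs, 235 to 252) and 200.3 CPM in HFD (1620 UMIs, 191 to 210.3). The log2 ratio was -0.28 (-0.37 to -0.19), lower in HFD but well within 2-fold. By class it ranged from 211 CPM in Lyz1-high cells to 284 CPM in Folr2+ Ccr2- cells in CD, and from 179.6 CPM in Lyz1-high cells to 234 CPM in the remaining cells in HFD. The intervals of all neighbouring classes overlapped in both libraries, but classes further apart in the order could be separate. Lyz1-high cells of CD (186 to 238) lay below Folr2+ Ccr2+ cells (242 to 274), and those of HFD (165 to 195) below the remaining cells (209 to 261). Cells with at least 10 UMIs of *Lyz1* were at -0.29 (-0.40 to -0.18) over the others in CD and -0.26 (-0.40 to -0.11) in HFD. Within gates the ratio of HFD over CD was between -0.29 and -0.09 and had an interval below 0 in 4 of 6, and within classes in 4 of 6. Reference cells with *Plac8* or *Flt3* were no lower, with 299.6 CPM in CD and 371 CPM in HFD.

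Among 23 other genes of the TGFβ and GDF families, their latency proteins, receptors and SMADs, 21 had UMIs, 10 passed the floor and 1 was past 2-fold, on the lower side (1.72% of all genes), with a median of -0.06 beside -0.0049 for all genes. The lower gene was *Tgfbr2*, the receptor that binds TGFβ first, at 148 CPM in CD and 66.8 CPM in HFD and a log2 ratio of -1.15 (-1.29 to -1.01). In CD and HFD it was at 213 and 108 CPM in Lyve1+ Timd4- cells, 29.8 and 24.4 in Lyz1-high cells and 52.5 and 80.5 in the remaining cells. The part of the makeup of the libraries in its ratio was not tested. *Tgfbi*, a matrix protein gene named for its induction by TGFβ, was at 589.8 CPM in CD and 339 CPM in HFD, a ratio of -0.80 (-0.86 to -0.73). *Nrros*, whose product anchors latent TGFβ1 on myeloid cells, and *Furin*, which cleaves the precursor, were at 226 CPM in CD and 249 CPM in HFD and at 139.6 CPM in CD and 136 CPM in HFD, with ratios of 0.14 (0.06 to 0.22) and -0.04 (-0.15 to 0.07).

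*Gdf15* (ENSMUSG00000038508, GRCm38 chr8:70629393-70632456) was the only one of the 9 genes with a higher level past 2-fold in HFD. It was at 22.7 CPM in CD (279 UMIs, 20.1 to 25.5) and 49.5 CPM in HFD (400 UMIs, 44.7 to 54.6), a log2 ratio of 1.12 (0.90 to 1.35). A few cells held most of it. A UMI was found in 99 CD cells (4.19%) and 139 HFD cells (6.88%), and after thinning in 1.24% (0.834 to 1.78) and 3.52% (2.73 to 4.46). The thinned reference cells had it in 0 of 20 and in 1.85% (0.0469 to 9.89). The 10 cells with the most UMIs held 51.3% of them in CD and 36.8% in HFD. The highest CD cell had 38 UMIs of *Gdf15*, and the highest HFD cell had 55, 13.8% of the library's total, among 12892 UMIs in all, with a UMI of the monocyte gene *Plac8*. It belonged to the reference cells, which without thinning held 59 UMIs of *Gdf15* in HFD and 0 in CD.

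**Figure D4:**
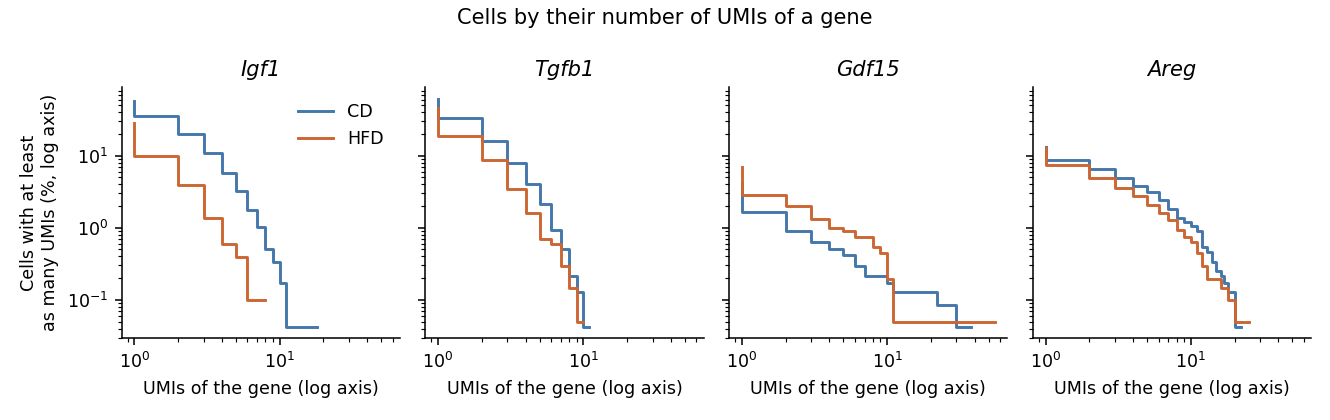
Percentage of cells (log axis) with at least a given number of UMIs of a gene (log axis) in the CD and the HFD library, for *Igf1*, *Tgfb1*, *Gdf15* and *Areg*. *Gdf15* starts lowest, at 4.19% of CD and 6.88% of HFD cells with 1 UMI, and reaches farthest, to 38 and 55 UMIs in a cell.

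The ratio of *Gdf15* was 1.51 without the 10 highest cells of each library. Those cells were picked by *Gdf15* and held 51.3% of its UMIs in CD and 36.8% in HFD, so a rise follows from the cut itself. The ratio was short of 2-fold without the 5% of cells with the most UMIs (0.86), without cells that held a UMI of another cell type (0.74) and, in a setting added after the values were seen, without cells that held a UMI of a monocyte or dendritic marker (0.91). Both of these marker lists were higher in HFD as sums, but of the monocyte genes only *Plac8* was higher and *Ly6c2* was lower.

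The higher level of *Gdf15* in HFD was seen inside each gate, with an interval above 0 in 6 of 6. In Trem2+ cells it was at 38.9 and 181 CPM in CD and HFD, a log2 ratio of 2.22 (1.89 to 2.55). Monocyte markers in this gate were at 14.9 and 175 CPM and peritoneal macrophage markers at 29 and 104 CPM, also higher in HFD. Without cells that held a UMI of another cell type, monocyte and dendritic markers not counted, the ratio in Trem2+ cells was 1.41 (1.0 to 1.83). Without those with a monocyte or dendritic marker it was 1.81 (1.44 to 2.18). In Lyve1+ cells *Gdf15* was at 22.3 and 41.4 CPM, the smallest ratio, 0.89 (0.41 to 1.36). By class, *Gdf15* in CD was at 18.4 CPM in Timd4+ cells, 23.2 in Lyve1+ Timd4- cells, 128 in Folr2+ Ccr2- cells, 10.5 in Folr2+ Ccr2+ cells, 0.805 in Lyz1-high cells and 6.17 in the remaining cells. In HFD it was at 71.3 CPM in Timd4+ cells, 41 in Lyve1+ Timd4- cells, 155 in Folr2+ Ccr2- cells, 34.4 in Folr2+ Ccr2+ cells, 12.3 in Lyz1-high cells and 111 in the remaining cells. The lowest of these rested on 1 UMI, and the intervals of Folr2+ Ccr2- and the remaining cells overlapped in HFD. Single cells carried much of 2 of these levels: without the highest cell of each library, a setting added after the values were seen, Folr2+ Ccr2- cells of CD were at 84.4 CPM and the remaining cells of HFD at 70.8 CPM. The interval of the ratio was above 0 in 5 of 6 classes. The exception was the class with the highest level in both libraries, Folr2+ Ccr2- cells, with a ratio of 0.27 (-0.15 to 0.69). Without the highest cells, of which only that of CD lay in this class, the ratio there was 0.87 (0.40 to 1.35). That cell was picked by *Gdf15* and left only the CD side, so a rise follows from the cut itself. The remaining cells had 4 UMIs in CD and 150 in HFD, a ratio of 4.17 (2.78 to 6.06), of which 55 UMIs lay in 1 HFD cell, and the ratio was 3.52 (2.12 to 5.43) without it. With classes weighted as in CD the library ratio was 1.19, close to the value without weights.

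Cells with a UMI of *Trem2*, which encodes a lipid-sensing receptor, stood above the others for *Gdf15*. The gate is broad and overlaps that of *Lyve1*, with 386 of its 638 CD cells and 32 of its 168 HFD cells also Lyve1+. In CD it was at 38.9 CPM in Trem2+ cells against 15.9 CPM in the others, a log2 ratio of 1.29 (0.94 to 1.64). In HFD it was at 181 CPM in Trem2+ cells against 32.4 CPM in the others, a ratio of 2.49 (2.19 to 2.78). With each cell thinned to 800 UMIs these ratios were 0.98 and 1.08, so that the CD value was no longer past 2-fold. Without the highest cell of each library, both of which lay in this gate, they were 0.84 (0.46 to 1.22) and 1.93 (1.60 to 2.26), and the CD value was again short of 2-fold. Seen from the other side, cells with *Gdf15* had more *Trem2*, at 167 against 80.5 CPM in the cells without it in CD and 138 against 33.8 CPM in HFD. This was not particular to *Gdf15*. Cells with *Igf1* had 116 against 47.4 CPM of *Trem2* in CD and 95.1 against 20.2 CPM in HFD. Cells with *Gdf15* had fewer transcripts of *Areg* in both libraries, with log2 ratios of -2.05 (-2.97 to -1.27) and -0.49 (-0.96 to -0.04).

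*Gdf15* is a known target of the integrated stress response, so 7 genes of that response were set beside it. In cells with *Gdf15* their summed level was -0.02 (-0.21 to 0.16) in log2 over cells without it in CD and 0.07 (-0.11 to 0.25) in HFD, with both intervals including 0. Single genes of it varied: *Ddit3*, the gene of the CHOP transcription factor, named after its values were seen, was at 68.5 against 46.9 CPM in CD, a ratio of 0.54 (0.02 to 1.03), and 0.31 (-0.27 to 0.85) in HFD. Between the libraries, 3 of the 7 genes passed the floor and 0 were past 2-fold, where 0.881% of all genes were higher and 1.72% lower. *Atf4* was at 0.18 (0.09 to 0.27) and *Ppp1r15a* at -0.24 (-0.33 to -0.15). Immediate early genes, which tissue digestion can raise, had 10 of 10 past the floor and 0 past 2-fold, beside those same shares of all genes. Their ratios ran from -0.35 for *Ier3* to 0.33 for *Nr4a1*. As a sum, they were at 0.10 (0.07 to 0.12) in cells with *Gdf15* over cells without it in CD and 0.04 (0.01 to 0.07) in HFD. One of them, *Atf3*, was higher in cells with *Gdf15*, by 0.56 (0.44 to 0.69) in CD and 0.28 (0.13 to 0.42) in HFD. Neither *Atf3* nor *Ddit3* was particular to these cells. In cells with *Igf1*, *Atf3* was at 0.56 in CD and 0.24 in HFD, and *Ddit3* at 0.61 and 0.49. The genes most like *Gdf15* over the 12 points were *H3f3b*, *Smarcc2* and *Fam208a* (0.964, 0.938 and 0.929).

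*Areg* (ENSMUSG00000029378, GRCm38 chr5:91139599-91148432), which encodes amphiregulin, was the counterpart of *Igf1*, and its promoter held 2 of the 4 motifs searched. The RefSeq window (GRCm38 chr5:91139349-91139648, plus strand) is shown because it was the only one of the 7 genes with a window used here that matched the cAMP response element, TGACGTCA, which begins 61 bases before the start site. The TATA box match begins 31 bases before it, and both are in capitals. Windows of *Pdgfc*, *Vegfb*, *Tgfb1* and *Gdf15* matched none of the 4 motifs, and those of *Pdgfb* and *Hbegf* were not used here.
Areg: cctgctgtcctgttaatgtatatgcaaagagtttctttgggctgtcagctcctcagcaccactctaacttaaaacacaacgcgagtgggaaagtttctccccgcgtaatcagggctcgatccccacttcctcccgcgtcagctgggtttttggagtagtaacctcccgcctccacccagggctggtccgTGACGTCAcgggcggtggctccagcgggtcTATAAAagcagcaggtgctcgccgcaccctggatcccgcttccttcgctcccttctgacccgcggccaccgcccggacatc

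The library level of *Areg* hardly differed between the diets, at 99.2 CPM in CD (1219 UMIs, 93.7 to 105) and 102 CPM in HFD (823 UMIs, 94.9 to 109), a log2 ratio of 0.04 (-0.09 to 0.17). The cells behind these totals differed. In CD, 97.6% of the UMIs lay in Ccr2+ cells and 82.4% in cells with at least 10 UMIs of *Lyz1*, and in HFD 89.7% and 87.5%. Ccr2+ cells were 56.1% of CD and 56% of HFD cells, and Lyz1-gated cells 23.5% and 33.3%. Both gates held deeper cells than the rest, so their share of all UMIs was larger than these values. By class, *Areg* in CD was at 45.2 CPM in Timd4+ cells, 40.8 in Lyve1+ Timd4- cells, 7.04 in Folr2+ Ccr2- cells, 155 in Folr2+ Ccr2+ cells, 248 in Lyz1-high cells and 109.6 in the remaining cells. In HFD it was at 25 CPM in Timd4+ cells, 32.3 in Lyve1+ Timd4- cells, 10.7 in Folr2+ Ccr2- cells, 104 in Folr2+ Ccr2+ cells, 180.3 in Lyz1-high cells and 39.9 in the remaining cells. Lyz1-high cells led and Folr2+ Ccr2+ cells were next in both libraries, each with an interval apart from the next class.

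Within the classes where it was high, *Areg* was lower in HFD. The log2 ratio was -0.46 (-0.66 to -0.25) in Lyz1-high cells, -0.58 (-0.84 to -0.33) in Folr2+ Ccr2+ cells and -1.46 (-2.0 to -0.93) in the remaining cells, and the interval included 0 in the other 3 classes. Lyz1-high cells held 25.3% of the *Areg* UMIs in CD and 67.4% in HFD, with a larger share of the library. With classes weighted as in CD the library ratio was -0.56, and without cells that held a UMI of another cell type it was 0.51, so its sign depended on the cells that were counted. The latter setting left 1651 CD and 1534 HFD cells. Its T, NK or ILC2 list, mostly *Il1rl1*, had a UMI in 401 CD and 234 HFD cells, and whether those were other cell types was not tested.

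Against the other cells of the same library, Ccr2+ cells were higher in *Areg*, with a log2 ratio of 4.08 (3.55 to 4.67) in CD (137 CPM in Ccr2+ cells against 8.08 CPM in the others) and 1.42 (1.10 to 1.77) in HFD (119 CPM in Ccr2+ cells against 44.5 CPM in the others). For cells with at least 10 UMIs of *Lyz1* the ratios were 2.89 (2.68 to 3.11) and 2.41 (2.11 to 2.72). Thinning each cell to 800 UMIs left the latter at 3.10 and 2.46, and the share of these cells with a UMI at 13.5% (10.8 to 16.6) and 9.52% (7.41 to 12), beside 1.37% (0.786 to 2.22) and 1.74% (0.703 to 3.55) of Lyve1+ cells and 5% (0.127 to 24.9) and 3.70% (0.452 to 12.7) of the reference cells. The share in Lyve1+ cells was thus no higher than in the reference. Without thinning the shares of the 2 gates were 41.3% and 28.9%, and 7.17% and 4.82%. Of the cells with at least 5 UMIs of *Areg*, 91 in CD and 55 in HFD, 91 and 51 held a UMI of *Ccr2*, and they gave 64.8% and 56.4% of its UMIs. Cells with *Areg* were deeper than most, with medians of 7432 and 6268 UMIs.

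Cells with *Areg* were rich in *Fn1* and *Ear2*, which are known from monocyte-derived macrophages. The matrix gene *Fn1* was at 3176 against 1003 CPM in cells without *Areg* in CD, a log2 ratio of 1.66 (1.62 to 1.71), and 0.67 (0.62 to 0.72) in HFD, and the ribonuclease gene *Ear2* gave 1.32 (1.26 to 1.37) and 0.65 (0.60 to 0.70). *Igf1* was lower in them, with ratios of -1.77 (-1.97 to -1.57) and -1.57 (-1.94 to -1.22). The list of monocyte markers went against *Fn1* and *Ear2* in CD, at 15.5 CPM in cells with *Areg* against 42.2 in the others, -1.45 (-1.96 to -0.97). Dendritic markers were higher in these CD cells, at 51.1 against 17 CPM, a ratio of 1.59 (1.24 to 1.93). The T, NK or ILC2 list had a ratio of 0.81 (0.53 to 1.08) in *Areg* cells of CD and 0.20 (-0.22 to 0.59) in those of HFD. *Il1rl1* gave 507 of its 533 UMIs in CD and 297 of 298 in HFD. *Nkg7* and *Cd3g* had 17 and 8 UMIs in CD and 0 in HFD, and *Cd3e* was at 0. The part of this list in the level of *Areg* was not tested. The immediate early list was lower in them, at -0.41 (-0.43 to -0.40) and -0.23 (-0.25 to -0.21). Over the 12 points *Areg* had correlations of -0.816 with *Igf1*, -0.806 with *Igfbp4* and -0.867 with *Gdf15*, and its nearest genes were *Mrpl33*, *Socs6* and *S100a10* (0.983, 0.967 and 0.966).

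*Hbegf* (ENSMUSG00000024486), which encodes heparin-binding EGF-like growth factor, did not follow *Areg*. It was at 17.3 CPM in CD (212 UMIs, 15 to 19.7) and 11.5 CPM in HFD (93 UMIs, 9.28 to 14.1). HFD was lower within 2-fold, at -0.59 (-0.95 to -0.23). By class it lay between 9.26 and 25 CPM in CD and between 7.47 and 24.9 CPM in HFD, and the interval of the ratio included 0 in 6 of 6 classes. Ccr2+ cells were lower than the others in both libraries, with ratios of -0.95 (-1.35 to -0.54) and -1.03 (-1.66 to -0.39). In HFD, cells with *Hbegf* had more *Areg*, 256 against 94.4 CPM in the other cells, a ratio of 1.44 (1.12 to 1.75). In CD the same ratio was -0.06 (-0.38 to 0.24). The genes most like *Hbegf* were *Dnase1l1*, *Stk3* and *Akr1b3* (0.891, 0.878 and 0.873), a weaker likeness than that of *Igf1* or *Areg*.

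Of 14 other genes of the EGF family, its receptors and its sheddases, 12 had UMIs and 3 passed the floor. Past 2-fold were 0, beside 0.881% of all genes higher and 1.72% lower, and the median was 0.09. The 3 were the sheddase genes *Adam10* and *Adam17* and the iRhom gene *Rhbdf2*, which serves *Adam17*. Their ratios lay between -0.11 and 0.36.

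**Figure D5:**
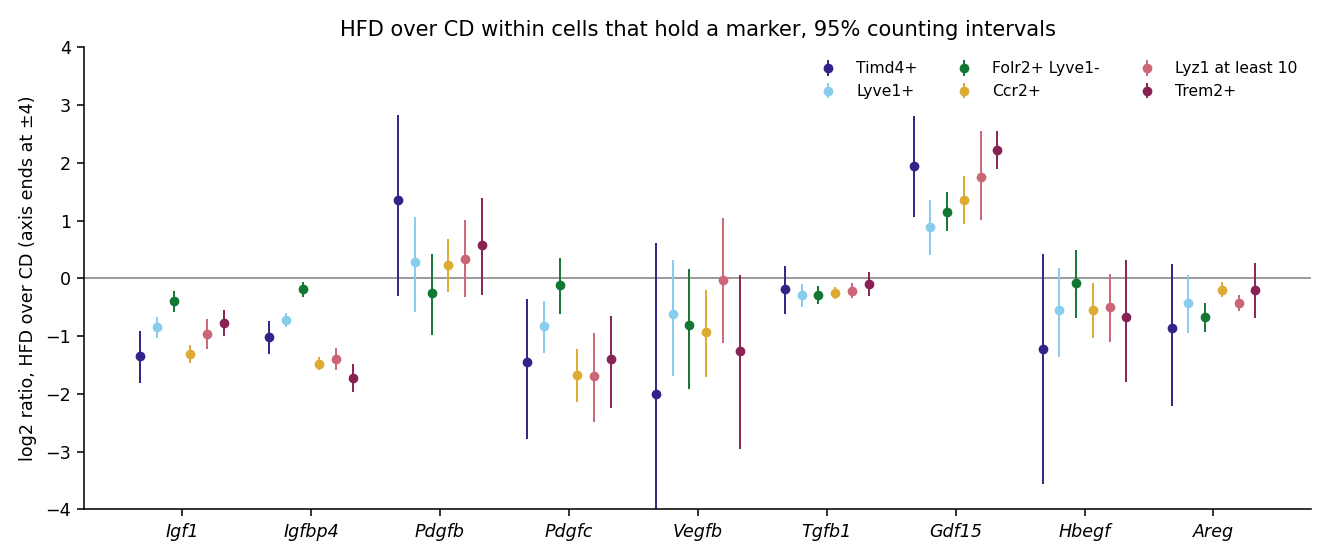
Log2 ratio of HFD over CD for each gene within cells that hold a marker (6 colours, gates as named), with exact 95% counting intervals. The 6 values of *Gdf15* lie above 0, from 0.89 to 2.22, and the 6 of *Igf1* and of *Igfbp4* lie below 0.

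Side by side within gates, *Gdf15* was higher in HFD in 6 of 6 gates, and *Igf1* and *Igfbp4* were lower in 6 of 6. *Areg* was below 0 in 6 of 6 gates, with an interval below 0 in 3 of them (Folr2+ Lyve1-, Ccr2+ and Lyz1-gated cells), although its library ratio was near 0. *Tgfb1* had an interval below 0 in 4 of 6 gates and *Pdgfc* in 5, *Vegfb* and *Hbegf* in Ccr2+ cells only among the 6, and *Pdgfb* in 0.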

How the data were processed

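Epididymal ATMs of CD and HFD mice were profiled by droplet-based single-cell RNA-seq, 1 library per diet. The matrices the authors deposited hold raw UMI counts for each gene in each barcode, with no normalization, from Cell Ranger 3.0.2 with the mm10 genome and Ensembl 93 genes. Cells with 200 to 3500 genes and at most 10% mitochondrial UMIs were kept, and 2059 CD and 1132 HFD barcodes lay over the mitochondrial limit. UMIs were summed over kept cells, gates or classes as CPM. Exact Poisson intervals were used for levels, conditional binomial intervals for ratios and Clopper-Pearson intervals for shares, all at 95% and covering counting error only, since PCR and sampling of 3 pooled mice add spread that they leave out. With 1 library per diet there was no test, and a gene was called past 2-fold when its log2 ratio reached 1 and its interval lay on 1 side of 0. Ratios were also computed on simulated Poisson counts, the model behind the intervals, with no spread between cells or mice. This checks the computation and cannot show that the intervals cover such spread. The 9 genes and the gene lists were chosen with earlier results of these data known. Values were given for these 9, and for list genes with at least 100 UMIs that were past 2-fold or with at least 100 CPM in a library, and those of *Pdgfra*, *Pdgfrb*, *Vegfa*, *Ddit3*, *Adam10* and *Rhbdf2* were added after they were seen. Likeness was the Pearson correlation over 12 class levels. Doublets were not called, and an alternative left out the 5% of cells with the most UMIs. Other alternatives changed the mitochondrial and gene limits, scaling, weighting, depth and gates. Gene positions came from GENCODE and promoters from RefSeq, both for GRCm38. Python 3.11.15, numpy 2.4.6, scipy 1.17.1, pandas 2.3.3 and matplotlib 3.10.9 were used.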

Additional observations from a re-analysis of the deposited data

Results flagged for a closer look

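The kept cells set aside barcodes with more than 10% mitochondrial UMIs, and some of the 9 genes stood over 2-fold above the kept cells there. In barcodes with 10 to 20% mitochondrial UMIs (924 in CD and 797 in HFD), *Igfbp4* was higher by 1.397 in CD and by 1.538 in HFD on the log2 scale. In the HFD barcodes of that range, *Pdgfc* was higher by 1.107 and *Gdf15* by 1.519. *Vegfb* was also higher there, by 1.48 (0.24 to 2.56) from 9 UMIs. *Areg* went the other way in barcodes with 10 to 20%, at -1.10 (-1.5 to -0.73) in CD and -1.08 (-1.61 to -0.59) in HFD. In the 323 HFD barcodes over 20%, *Gdf15* was higher by 1.378. These barcodes were shallow, with medians of 1283, 777 and 657 UMIs in the 3 sets named, and the part of depth in these values was not tested.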

How the results depend on the processing

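The sign of the HFD over CD ratio over all kept cells was the same under 13 of 13 alternatives for 8 of the 9 genes and under 10 of 13 for *Areg*. The number of genes past 2-fold and lower in HFD was 4, and it was 1 (*Vegfb*) with each cell thinned to 800 UMIs, 1 (*Vegfb*) with each cell given equal weight, 0 with HFD classes weighted as in CD, and 3 or 4 under the other alternatives. The number higher was 1, and it was 0 without the 5% of cells with the most UMIs, 0 without cells holding a UMI of another cell type, and 0 without cells holding a UMI of a monocyte or dendritic marker, an alternative chosen after seeing the data. Of the 54 gene and gate pairs, 6 were higher in both libraries, and 2 were with cells thinned to 800 UMIs, against 5 or 6 otherwise. The 11 lower pairs became 9 to 13. Of 966 gate values under alternatives, 174 moved beyond their interval and 0 reversed among those called. Within gates, 60 of 480 diet ratios moved. Among the 135 that belong to called results, 0 reversed, and a change of sign was not counted in the rest. The cause was not tested. No paired analysis was possible because each diet had 1 library and no replicate numbers to share. Depth limits *Vegfb*, *Pdgfb* and *Hbegf* most, and the spread between mice is unknown.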
